A study of Mus musculus with 6 samples.

Results

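Batf, Irf4, Prdm1, Maf, Tbx21, Eomes, Id2, Nfil3 and Myc encode transcription regulators that are known for their part in effector regulatory T cells (Tregs), the activated Tregs of tissues and tumours. The 9 genes were chosen by name and found by the gene symbol of the array's annotation, and each of the 9 had 1 row among the 19494 genes measured. Expression was read on 6 arrays of Tregs sorted from the tumour-bearing colonic lamina propria of mice. All mice were double reporters, written Foxp3-RFP x GPR15-GFP, in which red marks Foxp3, the factor that defines Tregs, and green marks GPR15, a receptor that brings T cells to the colon. Colorectal cancer had been induced in all of them with azoxymethane (AOM), which damages DNA, and dextran sulfate sodium (DSS), which injures the gut lining. CD4-stained red cells were sorted into a GPR15-GFP+ and a GPR15-GFP- fraction, with 3 arrays each, numbered 1, 5 and 6 in both. The age, sex and strain background of the mice, whether a number stands for 1 animal or a pool, and whether the GFP allele leaves Gpr15 intact are not given in the sources used here. P-values therefore reflect sample-to-sample spread, which may be technical.

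In effector Tregs, BATF and IRF4 bind DNA together at composite sites and open the effector programme, and IRF4 induces Prdm1, whose product BLIMP-1 supports interleukin-10 expression. c-MAF, encoded by Maf, drives interleukin-10 as well and is known for its part in Tregs of the colon. T-bet, encoded by Tbx21, and Eomes are related T-box factors of type 1 and cytotoxic responses. ID2 holds E protein factors inactive, NFIL3 is a leucine zipper repressor that also acts in the circadian clock, and MYC drives growth and metabolism of activated T cells.

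Levels are log2 values scaled by the authors, so a difference of 1 is a doubling, and a positive difference means a higher level in the samples labelled GPR15+. Array medians ran from 6.49 to 6.64. Values were least dispersed on both arrays numbered 1, with an SD of 1.63, against 1.74 to 1.87 on the other 4. Gpr15 itself had a mean of 8.12 ± 0.23 (SD, n = 3) in samples labelled GPR15+ and of 8.78 ± 0.31 (SD, n = 3) in those labelled GPR15-, which goes against the label, so each direction below rests on the labels. T cell genes were bright in both fractions, with Cd3e at percentile 99.0 and Cd4 at percentile 93.3 of mean level over all genes. Ikzf2 and Ctla4, which Tregs express strongly, lay at percentiles 94.9 and 99.0. Il2ra, the high-affinity interleukin-2 receptor chain of Tregs, was dim in both fractions, with means of 5.28 and 5.06.

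None of the 9 factors differed between the fractions after adjustment over all genes. Irf4, Maf and Prdm1 lay above 0 in all 3 pairs of equal number and Myc, Id2 and Batf below 0 in all 3, while Tbx21, Eomes and Nfil3 lay on both sides. In bulk samples fewer cells of a type and less RNA per cell cannot be told apart. Their differences ran from -0.55 for Myc to 0.45 for Irf4, with a median of 0.00 against -0.06 over all genes. In limma's test, 0 of 9 factors and 0 of 19494 genes (0%) passed an adjusted p of 0.05, and the smallest adjusted p among the factors was 0.773. Without adjustment, limma gave a p under 0.05 to 1 of 9 factors (Irf4) and to 6.23% of all genes. With the number as a block it found 3 (Irf4, Maf and Myc) against 12.4%, with a smallest adjusted p of 0.386 among the factors from limma.

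Values of the fractions were fully apart for 1 of 9 factors (Irf4), against 13.3% of all genes in either direction. Over all genes, 7959 of 19494 lay above 0 on the mean and 11535 below, and limma gave an unadjusted p under 0.05 to 544 higher and 670 lower genes, against which the counts of each list below are to be read. Of all genes, 13.4% lay above 0 in all 3 pairs and 23.6% below, so the 3 factors on each side are to be read against unequal backgrounds. With arrays centred on their medians these backgrounds were 18.6% and 16.6%. The factors were then 4 above (Irf4, Prdm1, Maf and Nfil3) and 1 below (Myc). Irf4 and Prdm1 above 0 and Myc below 0 in all 3 pairs held as deposited, with centred arrays, with quantile normalization and with the trend of the difference over mean level removed. Maf lost its place with quantile normalization, and Batf and Id2 lost theirs with centring. Tbx21 and Nfil3 also lay above 0 in all 3 pairs with the trend removed. The backgrounds above and below 0 were 14.8% and 18.9% with quantile normalization and 16.9% and 16.8% with the trend removed.

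**Figure D1:**
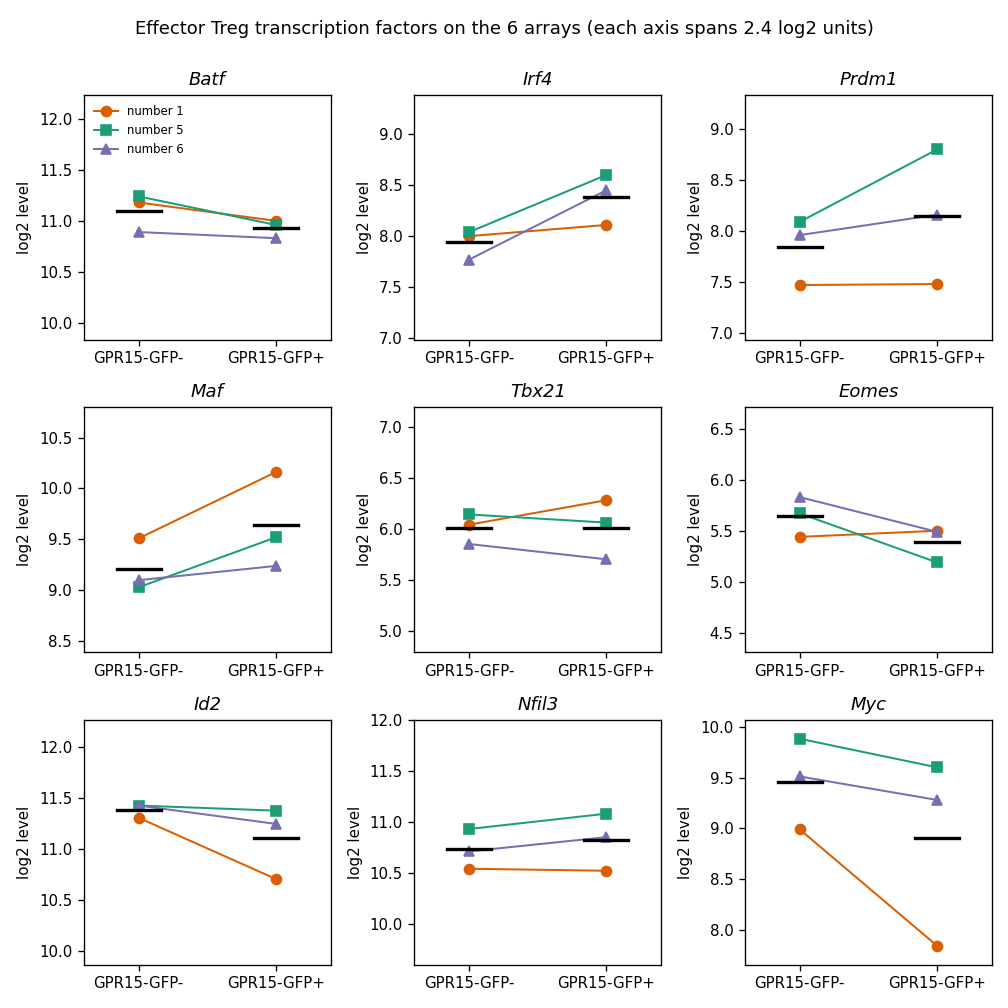
Log2 level of each of the 9 factors on the 6 arrays, by sorted fraction, with lines joining arrays of equal number and black bars at the fraction means; each vertical axis spans 2.4 log2 units around its own gene. Irf4 is the panel in which the fractions do not overlap, Prdm1 and Myc are spread by number, and the lowest Myc value, 7.85, is GPR15+ replicate 1.

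Irf4, the interferon regulatory factor of effector Tregs, read 8.00, 8.04 and 7.77 on the arrays numbered 1, 5 and 6 of the samples labelled GPR15-. In the samples labelled GPR15+ it read 8.11, 8.60 and 8.45. Every value of the latter lay above every value of the former, although the gap between 8.04 and 8.11 is small. The means were 7.94 ± 0.14 (SD, n = 3) and 8.38 ± 0.25 (SD, n = 3), a difference of 0.45 ± 0.19 (SE) or 1.36-fold (95% interval 0.01 to 0.88). The pairs differed by 0.11, 0.56 and 0.67, so the samples numbered 1 contributed least. Limma gave an unadjusted p of 0.0465 and an adjusted p of 0.773. Irf4 was the 1 factor that passed under any setting tried, with limma's array weights (difference 0.55, adjusted p = 0.0340), whose estimate stopped before it converged and put 59.8% of all weight on GPR15+ replicate 6. That fit also gave an unadjusted p under 0.05 (limma) to 6534 of 19494 genes, and its count of genes called is given at the end. With weights estimated gene by gene, a setting added after the data were seen, the adjusted p of Irf4 from limma was 0.119. Its unadjusted p in limma was not under 0.05 with quantile normalization, without the 40% dimmest genes or with an intensity-dependent robust prior. With 1 array left out it was under 0.05 only without GPR15+ replicate 1.

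Batf, the leucine zipper partner of IRF4, lay the other way by a small amount. It read 11.18, 11.24 and 10.89 in the samples labelled GPR15- and 11.00, 10.96 and 10.83 in those labelled GPR15+. The fractions overlapped. The means were 11.10 ± 0.19 (SD, n = 3) and 10.93 ± 0.09 (SD, n = 3), and the difference was -0.17 ± 0.17 (SE; 95% interval -0.56 to 0.22). Leaving out GPR15- replicate 6 gave -0.28, and leaving out GPR15- replicate 5 gave -0.11. Its 3 pair differences of -0.19, -0.27 and -0.06 were the closest together of the 9 factors save Nfil3. Batf was among the brightest genes of the array, at percentile 98.8 of mean level. Irf4 and Batf, whose products act as a pair, thus lay on opposite sides of 0 in each of the 3 pairs as deposited. With arrays centred on their medians they did not in each pair. The difference between the 2 genes was not tested.

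Of 6 genes for partner factors of BATF and IRF4, 0 passed adjusted over all genes and 0 had an unadjusted p under 0.05 without a block (limma). Their median difference was 0.11. Jun, an AP-1 subunit that pairs with BATF, differed by 0.31 ± 0.17 (SE), and its fractions did not overlap. Irf8, which shares BATF-bound composite sites with IRF4, differed by 0.23 and Jund by 0.10, the latter turning to -0.02 with quantile normalization. The BATF relative Batf2 lay at -0.46 ± 0.22 (SE), below 0 in all 3 pairs, and had an unadjusted p of 0.0339 in limma with the block.

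Prdm1 followed the numbers more than the fractions. In samples labelled GPR15- it read 7.47, 8.09 and 7.96, and in those labelled GPR15+ 7.48, 8.80 and 8.16. Both samples numbered 1 were the lowest of their fraction, and the pairs differed by 0.01, 0.71 and 0.19. The means of 7.84 ± 0.33 (SD, n = 3) and 8.15 ± 0.66 (SD, n = 3) gave a difference of 0.30 ± 0.34 (SE; 95% interval -0.48 to 1.09), with an adjusted p of 0.864 in limma. Pair 5 was the largest, and pairs 1 and 6 lay at 0.01 and 0.19. Without GPR15+ replicate 5 the difference was -0.03, in a fit that kept GPR15- replicate 5, the highest of its fraction. Without GPR15- replicate 1 it was 0.12, and without GPR15+ replicate 1 it was 0.63. With the number as a block the interval was -0.13 to 0.74.

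The promoter windows of Irf4 and Prdm1 are shown because these genes lay above 0 in all 3 pairs under each scaling and because IRF4 and BATF act on Prdm1. The RefSeq promoter table (build GRCm38.p6) held 7 of the 9 factors, each as 300 bases from 250 before to 50 after the transcription start. Of the letters searched on both strands, the AP-1 site TGANTCA, to which BATF with a JUN partner binds, occurred in 1 of the 7 windows, that of Prdm1, against 7.81% of all 32851 windows. It begins 48 bases before the start site as TGAATCA, in capitals below. The BLIMP-1 core AGTGAAA (4.32% of all windows), the E-box CACGTG of MYC (7.15%), the D-box TTANGTAA of NFIL3 (2.32%) and the T-box core AGGTGTG (5.84%) occurred in 0 of the 7. Both windows are written 5′ to 3′ on the gene's strand, Irf4 at chr13:30748983-30749282 on the plus strand and Prdm1 at chr10:44458699-44458998 on the minus strand.
Irf4: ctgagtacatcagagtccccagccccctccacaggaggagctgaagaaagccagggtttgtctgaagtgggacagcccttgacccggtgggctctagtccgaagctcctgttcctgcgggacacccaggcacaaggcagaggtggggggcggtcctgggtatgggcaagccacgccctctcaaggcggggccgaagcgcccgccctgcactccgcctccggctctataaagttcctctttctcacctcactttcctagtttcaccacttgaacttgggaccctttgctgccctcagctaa
Prdm1: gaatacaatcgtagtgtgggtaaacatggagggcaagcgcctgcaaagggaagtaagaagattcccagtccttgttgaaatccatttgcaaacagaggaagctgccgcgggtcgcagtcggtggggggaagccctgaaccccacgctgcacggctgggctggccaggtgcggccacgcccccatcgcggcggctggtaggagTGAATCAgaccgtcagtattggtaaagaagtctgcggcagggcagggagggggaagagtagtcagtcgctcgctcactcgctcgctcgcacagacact

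Maf lay higher in samples labelled GPR15+ in each pair, by 0.65, 0.49 and 0.14. Its levels were 9.51, 9.03 and 9.10 in the samples labelled GPR15- and 10.16, 9.52 and 9.24 in those labelled GPR15+. The samples numbered 1 were the highest of each fraction, the reverse of Prdm1, and the fractions overlapped because GPR15- replicate 1 lay above GPR15+ replicate 6. The means were 9.21 ± 0.26 (SD, n = 3) and 9.64 ± 0.47 (SD, n = 3), a difference of 0.43 ± 0.27 (SE) or 1.34-fold (95% interval -0.19 to 1.04), with an adjusted p of 0.774 in limma. With the number as a block the interval was 0.03 to 0.82 and limma's unadjusted p was 0.0384. Without GPR15+ replicate 1 the difference was 0.17.

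**Figure D2:**
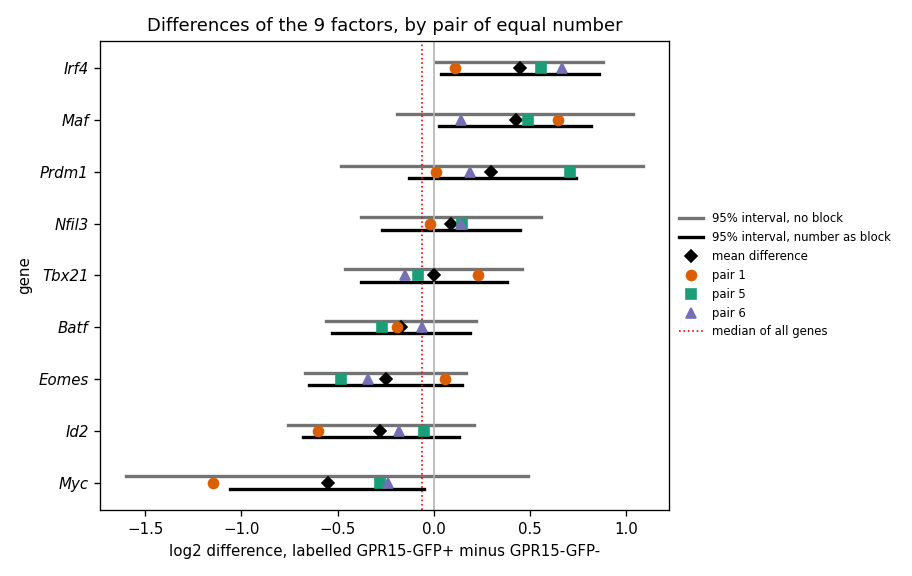
Log2 difference of each factor, samples labelled GPR15-GFP+ minus GPR15-GFP-, with coloured marks for the 3 pairs of equal number, diamonds for the mean, bars for limma's 95% intervals without a block (grey) and with the number as a block (black), and a dotted line at the median of all genes (-0.06). The intervals of Irf4 lie above 0 in both fits, and those of Maf and Myc clear 0 with the block.

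Among 13 measured effector Treg genes, many of which BATF, IRF4 and BLIMP-1 are known to act on, 0 passed adjusted over all genes in limma, and their median of -0.06 equalled that of all genes. At an unadjusted p under 0.05 limma found 2 higher and 2 lower. Il10, the suppressive cytokine that BLIMP-1 and c-MAF promote, read 8.55, 9.26 and 8.95 in samples labelled GPR15- and 9.15, 10.38 and 9.61 in those labelled GPR15+. Each pair was higher, by 0.59, 1.11 and 0.66, although the fractions overlapped (difference 0.79 ± 0.33, SE). Gzmb, which encodes the protease granzyme B, differed by 0.47 ± 0.18 (SE) without overlap.

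On the lower side of that list were the inhibitory receptor Klrg1, which marks terminally differentiated effector Tregs, at -0.77 ± 0.24 (SE), and the chemokine receptor Ccr8 of tumour Tregs, at -0.70 ± 0.28 (SE). For both, the fractions did not overlap and all 3 pairs lay below 0. All 4 of these genes had an adjusted p of 0.773 in limma. The effector list thus held genes on either side of 0 in all 3 pairs, 4 above and 4 below. Leaving out GPR15+ replicate 5 gave a list median of -0.17, and leaving out GPR15+ replicate 1 gave 0.12.

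Of 8 measured genes tied to c-MAF and type 17 cytokines, 7 lay above 0, with a median of 0.24 against -0.06 over all genes, and 0 passed adjusted over all genes in limma. Il23r, the receptor subunit for interleukin-23, differed by 0.61 ± 0.17 (SE), with pairs at 0.57, 0.68 and 0.59. Il17f differed by 0.26, and Il4, which c-MAF was first known to activate, lay at -0.62 ± 0.31 (SE), with an unadjusted p of 0.0240 in limma with the block. Il4 was dim, at percentile 26.5 of mean level. At an unadjusted p under 0.05, limma found Il23r and Il10 higher.

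The T-box factors were dim on these arrays, Tbx21 at percentile 36.5 and Eomes at percentile 26.3 of mean level. Tbx21 read 6.04, 6.14 and 5.85 in samples labelled GPR15- and 6.28, 6.06 and 5.70 in those labelled GPR15+. The means were both 6.01, with SDs of 0.14 and 0.29 (n = 3), and the difference was 0.00 ± 0.20 (SE; 95% interval -0.46 to 0.46). Eomes read 5.44, 5.67 and 5.83 against 5.50, 5.19 and 5.49. Its difference of -0.25 ± 0.18 (SE; 95% interval -0.67 to 0.17) came from the pairs numbered 5 and 6, at -0.48 and -0.34, while pair 1 lay at 0.06. Leaving out GPR15+ replicate 5 gave -0.15, and leaving out GPR15- replicate 6 gave -0.16. The deposited values carry no detection calls, so it cannot be said whether the T-box rows were above background. The same holds for other dim genes named here, such as Il4 at percentile 26.5, Pparg at 19.8, Id3 at 19.1, Gzmk at 17.6 and Bhlhe41 at 12.4.

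Of 8 genes tied to T-bet and Eomes, 0 passed adjusted over all genes in limma, and the median was -0.07. Il18rap, the accessory chain for interleukin-18, lay at -0.65 ± 0.22 (SE) without overlap, with pairs at -0.20, -1.07 and -0.68. Il12rb2, a subunit of the interleukin-12 receptor, differed by 0.25 without overlap. The T-bet target Cxcr3 differed by 0.12 and Gzmk, which encodes granzyme K, by -0.20.

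Id2 was bright and nearly level apart from 1 array. It read 11.31, 11.43 and 11.43 in samples labelled GPR15- and 10.71, 11.38 and 11.25 in those labelled GPR15+. GPR15+ replicate 1 was the lowest of the 6. The means of 11.39 ± 0.07 (SD, n = 3) and 11.11 ± 0.35 (SD, n = 3) gave a difference of -0.28 ± 0.21 (SE; 95% interval -0.76 to 0.21), which was -0.08 without GPR15+ replicate 1. The E proteins, which ID2 inhibits, and the other Id genes had a median of 0.13 over 6 genes, with 0 at an unadjusted p under 0.05 in limma. Tcf12 differed by 0.43 ± 0.41 (SE) and Tcf3 by 0.18, both E proteins. Id3 differed by 0.26 and Id4 by -0.14.

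Nfil3 differed least after Tbx21. It read 10.54, 10.93 and 10.71 in samples labelled GPR15- and 10.52, 11.08 and 10.85 in those labelled GPR15+. The order of the numbers was the same in both fractions, with 1 lowest and 5 highest. The difference was 0.09 ± 0.20 (SE, 95% interval -0.38 to 0.56), with pairs at -0.02, 0.15 and 0.14. It was -0.04 without GPR15+ replicate 5, with GPR15- replicate 5 kept. The 14 PAR leucine zipper and clock genes, some of which share NFIL3's D-box sites, had a median of -0.02 and 0 at an unadjusted p under 0.05 in limma. Clock, a core activator of the circadian clock, differed by 0.31 and Nr1d2, a nuclear receptor repressor of the clock, by 0.34. Tef, a PAR factor of D-box sites, lay at -0.19 without overlap, and the repressor Bhlhe41 at -0.38.

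Myc had the widest span of the 9 factors over the 6 arrays, at 2.03 log2 units. Samples labelled GPR15- read 8.99, 9.88 and 9.51, and those labelled GPR15+ read 7.85, 9.60 and 9.28. Each pair was lower in the sample labelled GPR15+, by -1.15, -0.28 and -0.24, and the samples numbered 1 were lowest in both fractions. The means were 9.46 ± 0.44 (SD, n = 3) and 8.91 ± 0.93 (SD, n = 3), a difference of -0.55 ± 0.45 (SE; 95% interval -1.60 to 0.49), with an adjusted p of 0.815 in limma. With the number as a block the interval was -1.06 to -0.05 and limma's unadjusted p was 0.0359. The size depended on single arrays. The difference came to -0.02 when GPR15+ replicate 1 was left out and GPR15- replicate 1, the lowest of its fraction, was kept. Leaving out GPR15- replicate 5 gave a difference of -0.34. It came to -0.90 when GPR15+ replicate 5 was left out and to -0.26 without both arrays numbered 1.

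Of 11 MYC network factors 10 lay above 0, with a median of 0.05 that became 0.32 without GPR15+ replicate 1. The list's median was -0.09 in pair 1, the pair in which Myc differed most, and 0.19 and 0.11 in pairs 5 and 6. Mxd1 and Mnt, repressors that compete with MYC for its partner MAX, differed by 0.41 ± 0.18 (SE) and 0.38 ± 0.17 (SE). For both, the fractions did not overlap and all 3 pairs lay above 0, with an adjusted p of 0.773 in limma. With the block, limma's unadjusted p was 0.0475 for Mxd1 and 0.0457 for Mnt. Mxd3, Mxd4 and Mxi1 of the same list differed by 0.07, 0.01 and 0.04, each with pairs on both sides of 0. Mycl, a MYC relative, lay at -0.19, and Zbtb17, the MYC-binding factor MIZ1, at 0.15.

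Of 22 measured MYC-driven growth genes, 14 lay above 0 and 8 below, with a median of 0.03 and 0 at an unadjusted p under 0.05 in limma without a block. With the block, limma gave such a p to 2 of them, both higher: 0.0232 for Eif4e and 0.0274 for Hspd1. The translation initiation factor Eif4e differed by 0.72 ± 0.35 (SE), with pairs at -0.05, 1.09 and 1.11, and the mitochondrial chaperone Hspd1 by 0.48. Rrp9, a factor of ribosomal RNA processing, lay at -0.36, and the DNA repair enzyme Apex1 at -0.31. In pair 1, where Myc lay lowest, the median of these genes was -0.11, against 0.04 and 0.19 in pairs 5 and 6.

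**Figure D3:**
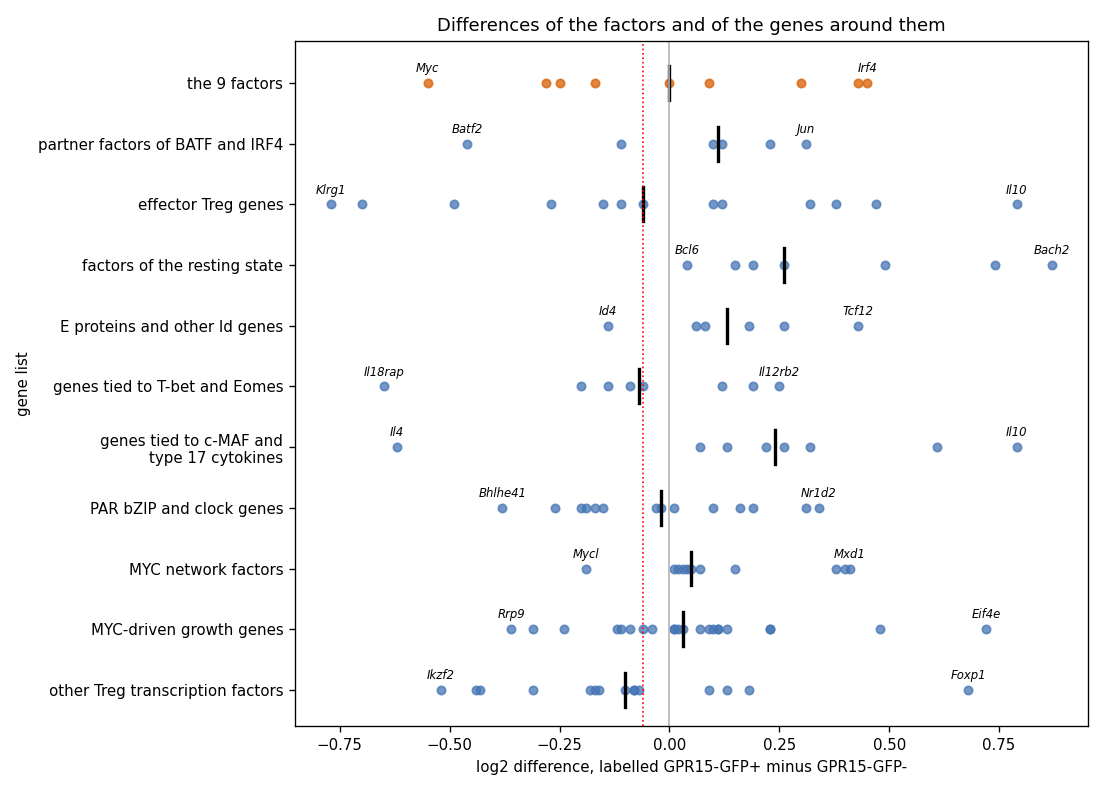
Log2 difference, samples labelled GPR15-GFP+ minus GPR15-GFP-, of each measured gene (points) in the 9 factors and in 10 lists of genes around them, with black bars at list medians, a dotted line at the median of all genes (-0.06), and names at the lowest and highest gene of each list. Effector Treg genes reach from Klrg1 (-0.77) to Il10 (0.79), and all 7 factors of the resting state lie above 0.

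Factors of the resting state, which oppose the effector programme, lay above 0 in 7 of 7 cases, with a median of 0.26. The list's median was 0.03 in pair 1 and 0.49 and 0.39 in pairs 5 and 6. Limma found 3 of them higher at an unadjusted p under 0.05 and 0 adjusted over all genes. Satb1, a chromatin organiser, differed by 0.74 ± 0.27 (SE), and Lef1, a factor of naive T cells, by 0.49 ± 0.20 (SE), both without overlap. Bach2, which competes with BATF at AP-1 sites, differed by 0.87 ± 0.37 (SE), with pairs at -0.23, 1.48 and 1.37. Of 15 other Treg transcription factors 11 lay below 0, against 11535 of 19494 over all genes, with a median of -0.10 and 0 passing adjusted over all genes in limma. Ikzf2, which encodes Helios, lay at -0.52 ± 0.19 (SE) and the nuclear receptor Rora at -0.43 ± 0.16 (SE), both without overlap. Foxp1 differed by 0.68 ± 0.35 (SE), with an unadjusted p of 0.00596 in limma with the block, and Pparg, the nuclear receptor of fat-tissue Tregs, by -0.31.

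The spread over the numbers was as large as is usual on these arrays. The means of the 2 samples of a number ranged by 1.32 log2 units for Myc, 0.97 for Prdm1 and 0.67 for Maf, and by 0.23 to 0.48 for the other 6 factors. That range was larger than the difference between the fractions for 7 of 9 factors, all but Irf4 and Eomes, against 77.5% of all genes. Its median was 0.39 over the factors and 0.37 over all genes.

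**Figure D4:**
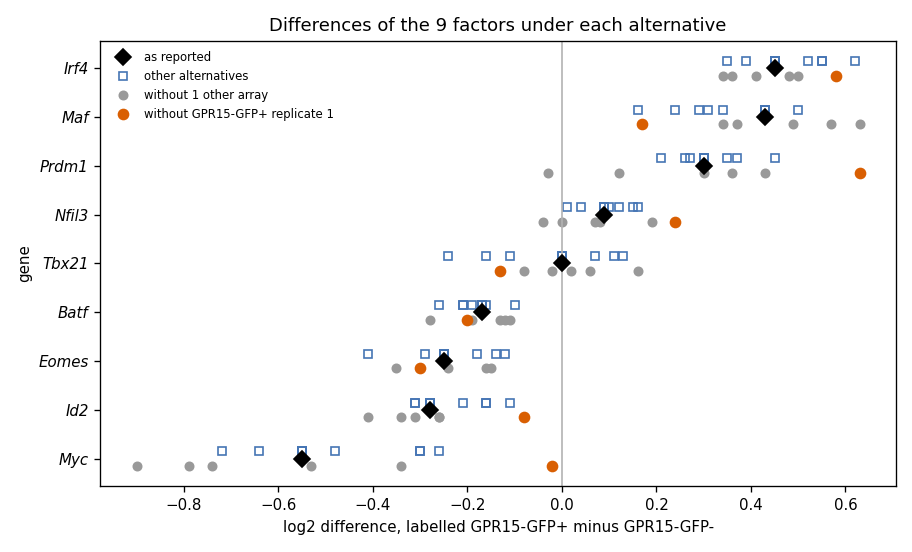
Log2 difference of each factor as reported (diamonds) and under each alternative, with circles for fits without 1 array (orange without GPR15-GFP+ replicate 1) and open squares for other alternatives. Irf4 stays between 0.34 and 0.62. Myc moves to -0.02 and Prdm1 to 0.63 without GPR15-GFP+ replicate 1, in fits that keep GPR15-GFP- replicate 1.

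Several of the 9 genes are also expressed by other cells that a sort can carry over. Irf4 and Prdm1 are high in plasma cells, Maf in macrophages, Eomes in cytotoxic cells and Id2 in innate lymphoid and dendritic cells. B and plasma cell markers were dim, with 2 of 8 above the median level of all genes, and their mean level ranged from 5.95 to 6.17 in samples labelled GPR15- and from 5.67 to 5.90 in those labelled GPR15+. Of the 8, 3 lay above 0 and 5 below, with Mzb1, a gene of antibody-secreting cells, at -0.59 and Cd79a, of the B cell receptor, at -0.36. Macrophage markers, 2 of 9 above the median level, ranged from 6.08 to 6.32 and from 5.77 to 6.23, with Lyz2 at -0.48 and Itgam at -0.49. With the block, limma's unadjusted p for Itgam was 0.0252. The median difference was -0.13 for the B and plasma cell markers and -0.16 for the macrophage markers, of which 8 of 9 lay below 0. Removing the trend with mean level shrank both medians, with values given at the end.

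CD8 T and NK cell markers had a mean level of 6.44 to 6.82 in samples labelled GPR15- and of 6.40 to 6.67 in those labelled GPR15+. Gzma, which encodes granzyme A, differed by -1.40 ± 0.37 (SE), while perforin, from Prf1, differed by 0.39. Innate lymphoid markers, 2 of 4 above the median level, had a mean level of 8.16 to 8.38 and of 7.69 to 8.14. The bright ones were Kit and Il7r, at percentiles 97.5 and 97.4 of mean level, while Il22 and Ncr1 lay below the median level. Kit also had the largest difference of the 4, so the mean level of this list says little about its dimmer genes. Of the 4 measured, 2 lay above 0 (Il22 at 0.13 and Il7r at 0.06) and 2 below, with the NK receptor Ncr1 at -0.35. Kit, the stem cell factor receptor, lay at -1.19, with pairs at -1.12, -1.30 and -1.16 and, with the block in limma, an unadjusted p of 8.35e-05 and an adjusted p of 0.176. Dendritic cell markers ranged from 6.11 to 6.18 and from 5.83 to 6.14, with H2-Aa at -0.31 and Flt3 at -0.28. Their median difference was -0.28, with 6 of 7 below 0. Epithelial markers ranged from 6.83 to 6.89 and from 6.45 to 6.89, with Vil1 at -0.59 and Phgr1 at -0.51. The epithelial median was -0.25, with 7 of 9 below 0. The part of other cells in the differences of the 9 factors was not tested.

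For the 3 factors that spanned 1 log2 unit or more, the genes with the most similar profile over the 6 arrays were sought by the root mean square distance between profiles centred on their own means. Nearest to Prdm1 were Galm, an enzyme of galactose metabolism, and Eif3b, a translation initiation subunit, at distances of 0.0584 and 0.0595 log2 units. Nearest to Maf were Nuggc and Krtap19-2, at 0.0595 and 0.0706. Both were dim, at 3.76 to 4.94 and at 4.40 to 5.40 over the 6 arrays, and it cannot be said whether they were above background. Nearest to Myc were Nploc4, a cofactor of the p97 segregase, at 0.101, and the adaptor Stap1, at 0.116. With 6 arrays and many genes such closeness is a description of these samples. After the trend with mean level was removed, 3 of these 6 genes were still among the 50 nearest.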

How the data were processed

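The authors deposited log2 values per probe set made with RMA, per the submitters' processing notes. RMA as a rule corrects background, quantile-normalizes and summarises probes. Its version, the array's name and a genome build are not given in the sources used here. The annotation named 19527 of 22142 rows with 1 gene symbol. For 33 genes with several rows the row with the highest mean was kept, which left 19494 genes. Precision is limited by the number of arrays, 3 a fraction.

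Samples were grouped by title. The test was limma's (version 3.58.1, R version 4.3.3; lmFit, eBayes, no block), adjusted by Benjamini-Hochberg over all genes, threshold 0.05; standard errors and intervals are limma's moderated ones, 2-sided. The code was tested on simulated data. An exact permutation test of 3 against 3 cannot go below 0.1. Deviations from the fraction means correlated at 0.567, 0.381 and 0.319 between samples numbered 1, 5 and 6, each over 0.1. Equal numbers were treated as pairs in the pair differences and in the fit with the block, but not in the main test. Blocked values stand beside results that pass an unadjusted p of 0.05 in 1 of the fits only. Pairings of unequal number reached 0.315 and 0.213 between 5 and 6, also over 0.1. The correlations set number 1 apart but do not clearly tell 5 from 6, so pairs 5 and 6 rest on the titles.

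The members, gene lists and alternatives were chosen with earlier results of these data known, so lists are described by counts and medians only. Named were the 9 factors, up to 4 genes of each list around them and 2 of each marker list by smallest unadjusted p, and the 2 nearest profiles. Gpr15, Cd4, Cd3e, Ctla4 and Il2ra were added as checks. Foxp3, Areg, Il1rl1 and Nfkb1 were not analysed here.

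Alternatives were the block, median centring, quantile normalization, removal of the trend with mean level (loess), leaving out the 40% dimmest genes, an intensity-dependent robust prior, array weights, the mean of a gene's rows, and leaving out each array or both numbered 1. A fit without 1 array kept the array of equal number in the other fraction. Its fractions thus held different numbers, and its shifts include the spread over the numbers.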

Additional observations from a re-analysis of the deposited data

How the results depend on the processing

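The number of genes called at the adjusted threshold in limma was 0 under every alternative except the 2 kinds of array weights. With array weights 2174 of 19494 genes were called, including 1 of 9 factors (Irf4). With gene-by-gene array weights, chosen after seeing the data, 2 genes and 0 factors were called. Genes with an unadjusted p under 0.05 numbered 1214 as reported, 2411 with the replicate block, 713 without the 40% dimmest genes, 6534 and 4342 with the 2 kinds of array weights, 4101 without both arrays numbered 1, and 668 to 4351 with 1 array left out, the highest being for GPR15+ replicate 1. Factors at that level numbered 1 as reported, 3 with the replicate block, 0 with quantile normalization, without the dimmest genes (which removes Tbx21 and Eomes) or with the robust prior, and from 0 to 2 with 1 array left out. The block changed no call at the adjusted threshold.

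The factors' median of 0.00 went to 0.07 with centred arrays, 0.04 with the trend removed, 0.09 without the dimmest genes, -0.16 with either kind of array weights, -0.11 without both arrays numbered 1, and from -0.08 to 0.07 with 1 array left out. The median over all genes, -0.06 as reported, was 0.01 with centred arrays, 0.00 with the trend removed and -0.02 without the dimmest genes. It was -0.08 with either kind of array weights and without both arrays numbered 1, and from -0.11 to -0.04 with 1 array left out. Batf, Irf4, Maf, Eomes, Id2 and Myc kept their direction under every alternative that measured them. Without GPR15+ replicate 5, in a fit that kept GPR15- replicate 5, Prdm1 turned to -0.03 and Nfil3 to -0.04. With 1 array left out they reached 0.63 and 0.24 at most. Tbx21, at 0.00, went to -0.24 and -0.16 with array weights, -0.11 without both arrays numbered 1, -0.08 without GPR15- replicate 6, -0.13 without GPR15+ replicate 1 and -0.02 when GPR15+ replicate 5 was left out, and reached 0.16 without GPR15+ replicate 6. Jund turned to -0.02 with quantile normalization, -0.07 without both arrays numbered 1 and -0.02 without GPR15- replicate 1, and reached 0.18 at most with 1 array left out.

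List medians with 1 array left out ranged from -0.06 to 0.20 for partner factors, -0.17 to 0.12 for effector genes, -0.15 to 0.05 for clock genes, -0.04 to 0.32 for MYC network factors, -0.12 to 0.14 for T cell markers, -0.27 to -0.02 for B and plasma cell markers and -0.35 to -0.13 for macrophage markers. Without both arrays numbered 1 they were 0.07 for effector genes, 0.30 for MYC network factors, -0.02 for T cell markers, -0.27 for B and plasma cell markers and -0.37 for macrophage markers. T cell markers lay at 0.15 with centring, 0.01 with quantile normalization, 0.02 with the trend removed and 0.14 without the dimmest genes. Macrophage markers lay at -0.09, -0.04, -0.03 and -0.10 under the same settings and at -0.27 with either kind of array weights. B and plasma cell markers lay at -0.02 with the trend removed. With array weights, other Treg factors lay at -0.27 and CD8 T and NK cell markers at 0.13, and with gene-by-gene weights MYC network factors lay at 0.21. The cause was not tested.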
